A study of Paeonia lactiflora with 8 samples.

Results

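The sequences described here are the shortest entries, 18 or 19 nt long, of less conserved microRNA families in the herbaceous peony Paeonia lactiflora. They were chosen by name and length alone: the first number after miR or MIR in the deposited name had to be above 450 and not be one of 13 better known families, which are miR472, miR482, miR529, miR530, miR535, miR827, miR828, miR858, miR1507, miR2109, miR2118, miR5213 and miR6022. The rule found 53 different sequences among the 270 of the series, 35 of them 18 nt and 18 of them 19 nt long. Small RNA was sequenced from young fruit and from flower, leaf and root at blossom, in 2 libraries per tissue that the submitters describe as biological replicates. Tissue and stage cannot be told apart for fruit, and the labels do not say how many plants went into a library. In whole organs, fewer cells of a type and less RNA per cell cannot be told apart, and no small RNA marker of tissue identity was used to check the labels.

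MicroRNAs are cut from hairpin precursors by Dicer-like enzymes and guide Argonaute proteins to messenger RNAs, in plants mostly by near-complete pairing along the whole microRNA. Family numbers in miRBase follow the order of discovery, so high numbers are mostly families known from few plant lineages. Transfer RNAs carry amino acids to the ribosome, and an enzyme adds the bases CCA to the 3′ end of each one after transcription. Fragments cut from transfer RNAs in the T arm, the stem and loop nearest to the 3′ end, are a known class of short RNA in plants and keep that CCA.

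Of the 53 sequences, 11 ended in CCA (20.8%), against 7 of the 217 other sequences (3.23%). Beside the nearest sets, the shares were 1 of 38 less conserved sequences of 20 nt or longer and 1 of 39 sequences of 18 or 19 nt from other families. These shares describe the table and were not tested, because related names and overlapping sequences are not independent. By length, 9 of the 35 sequences of 18 nt and 2 of the 18 of 19 nt ended in CCA. The first set of sequences is shown because it holds the CCA-ending members that also had the next bases searched for, and its capitals mark the CCA.
ppt-miR894_L-3R+1: ttcacgtcgggttcaCCA
osa-miR5077_1ss5GA: gttcacgtcgggttcaCCA
ath-miR8175_L-2: tccccggcaacggcgCCA
osa-miR5072_L-4_1ss13GA: tccccagcagagtcgCCA
bdi-miR5054_1ss11CG: tccccacggtgggcgCCA

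The next bases were read from the layout of a transfer RNA. Counted back from the 3′ end, CCA is preceded by 1 unpaired base, 7 bases of the acceptor stem and 5 bases of the T stem. The T stem side starts with an almost invariant C at base 16 from the 3′ end, and a pyrimidine, C or T, normally closes the T loop at base 17. Both bases were in place in the 5 sequences above, which are 5 of the 11 CCA-ending members. The C alone was at base 16 in 9 of the 11 (81.8%), in 5 of the 42 members with other ends (11.9%) and in 67 of all 270 sequences (24.8%). Over all 270 sequences, 33 (12.2%) had both bases, and among the 42 members with other ends 4 (9.52%) had them. In all, 5 sequences of the series had both features together with CCA, and all 5 were members. The osa-miR5077 sequence is the ppt-miR894 sequence with 1 more base at the 5′ end, so the letters of this pair overlap over 18 bases. The TTCGA run of the T loop was in 0 of the 53 members and in 3 of the 217 other sequences, searched on the strand given. In a transfer RNA that run starts farther than 19 bases from the 3′ end.

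A second set of CCA-ending sequences differed from the first at base 17. Its 3 members that end in CCA had the C at base 16 but no pyrimidine at base 17. Whether they come from transfer RNAs was not tested. The run CTGATACCA was in 2 of these 3 and in 1 further member, and both that member and 1 of the 2 are named after MIR1511, a family first described as a microRNA in legumes. The set is shown because 1 of its members goes on past CCA, and its capitals mark the shared run CTGATACCA, or CCA alone in the variant that lacks the run.
cpa-miR8155_L-1: aacctggctCTGATACCA
gma-MIR1511-p3_1ss7GT: taaccatgctCTGATACCA
gma-MIR1511-p3_2ss3CG18TC: acgaggctCTGATACCAc
rgl-miR5139_L-1_1ss16AG: aacctggctctgatgCCA
The run CTGATACCA was in the upper 3 sequences and in no other sequence of the 270. The cpa-miR8155 and rgl-miR5139 sequences also had the same seed, and gma-MIR1511-p3_2ss3CG18TC holds the run followed by 1 more base. The last 3 CCA-ending members, named here after their values were seen, were ptc-MIR6454-p5_2ss8AG18TA, gra-MIR8751a-p5_2ss3TA18TA and gma-MIR9756-p3_2ss16TC18CA, all with a mean under 2.

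The letters of the 11 CCA-ending members were also searched for a sequence that could pair with them as the other side of an acceptor stem. For each of the 11 CCA-ending members, the 7 bases of the acceptor side were set against the first 7 bases of all 270 sequences, allowing G-U pairs. Of 2970 combinations, 7 paired at all 7 bases, and how many would pair by chance was not worked out. The matches are not independent. The same stem stretches recurred for cpa-miR8155_L-1, rgl-miR5139_L-1_1ss16AG and gma-MIR1511-p3_1ss7GT, and ptc-MIR6454-p5_2ss8AG18TA matched more than once. The closest was ath-miR8175_L-2 with gma-miR6300_R+5, a longer, abundant sequence of 23 nt, with 6 Watson-Crick pairs and 1 G-U pair; every other match needed at least 2 G-U pairs. The capitals mark the paired bases and, in the first line, the CCA.
ath-miR8175_L-2: tccccggCAACGGCgCCA
gma-miR6300_R+5: GTCGTTGtagtatagtggtaagt
As background, plant transfer RNA for aspartate is known to begin with bases like those of the longer sequence. Whether the 2 sequences come from 1 RNA was not tested. The 18-nt member gma-MIR6300-p5 lies wholly inside gma-miR6300_R+5, without its first bases.

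Values are normalized read counts as deposited. The value of 1 read, inferred from the steps between low values, was between 0.432 in flower 1 and 2.54 in root 2. By that step, the 270 listed sequences held between 73898 reads in root 2 and 724509 in flower 2. Depth and library total are meant in this sense here, and leave out all reads outside the 270. A value of 3 reads, taken as the floor, was at most 7.62, in root 2, and at most 4.27 in the other libraries. Root 2 stood apart in the share of short sequences, so results that rest on it are given with and without it.

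The 53 sequences held a small part of every library, and the part was largest in root 2. Their share of the library total was 1.47% and 0.861% in fruit, 1.37% and 0.352% in flower, 0.315% and 0.357% in leaf, and 1.09% and 4.08% in root. Of the tissues, leaf had the closest replicates, and the root share without root 2 was 1.09%, inside the range of fruit and flower. The CCA-ending sequences alone held 1.32% and 0.806% in fruit, 1.27% and 0.301% in flower, 0.188% and 0.307% in leaf, and 0.54% and 3.54% in root. In root 2, sequences of 18 or 19 nt from other families also held more, at 11.9% against at most 0.451% elsewhere, and less conserved sequences of 20 nt or longer held 24.7% against at most 11.7%. The part of library quality in the root 2 values was not tested. Within the 53, CCA-ending sequences made up 49.6% of the members' summed value in root 1, 59.7% in leaf 1 and between 85.6% and 93.6% in the other 6 libraries.

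**Figure D1:**
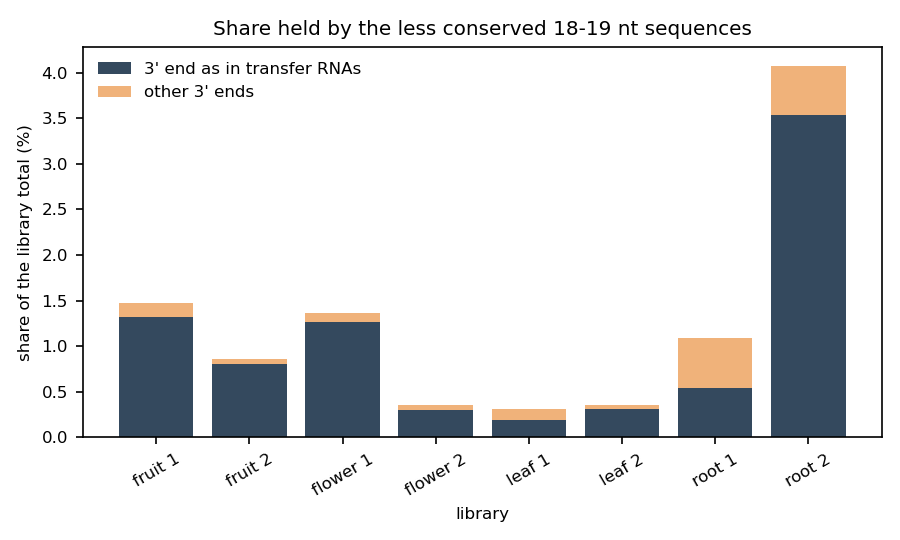
Bars give the percent of each library's summed normalized read count held by the 53 less conserved sequences of 18 or 19 nt, split by whether they end in CCA as transfer RNAs do; each bar is 1 library. Root 2 stands at 4.08% and no other library passes 1.47%, and the CCA-ending sequences are the larger part of every bar except root 1.

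Of the members, ppt-miR894_L-3R+1 was the most abundant, at 705 and 477 in fruit, 1236 and 1334 in flower, 299 and 396 in leaf, and 522 and 4063 in root. Both flower libraries were above those of fruit and leaf, while the root libraries lay on either side of flower. Differences between tissues did not pass (F test adjusted p = 0.437, limma). The log2 difference, leaf minus root, was -2.08 with both root libraries, -0.60 without root 2 and -3.56 without root 1. Its role in peony is not given in the sources used here.

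Next in level, ath-miR8175_L-2 was 1435 and 847 in fruit, 1229 and 244 in flower, 165 and 278 in leaf, and 721 and 1626 in root. Both leaf libraries were below both libraries of fruit and root, and overlapped with flower 2 (F test adjusted p = 0.359, limma). The sequence it could pair with on paper, gma-miR6300_R+5, was 2734 and 6239.9 in fruit, 18850.1 and 3059 in flower, 10308 and 7257 in leaf, and 8454 and 28999 in root. These 2 sequences did not run in 1 ratio: both leaf libraries were below both fruit libraries for ath-miR8175_L-2 and above them for gma-miR6300_R+5. The nested gma-MIR6300-p5 was 0 and 0 in fruit, 21.6 and 0 in flower, 7.34 and 8.16 in leaf, and 7.11 and 91.5 in root (F test adjusted p = 0.374, limma).

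Also with both bases in place, osa-miR5072_L-4_1ss13GA was 156 and 107 in fruit, 127 and 28.9 in flower, 22 and 28.9 in leaf, and 78.2 and 231 in root. Leaf was below fruit and root in every library, as for ath-miR8175_L-2 (F test adjusted p = 0.374, limma). The related bdi-miR5054_1ss11CG, named after its values were seen, was above 0 in fruit 1, at 8.38, in flower 1, at 2.59, and in root 2, at 17.8.

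The second set also varied between replicates. cpa-miR8155_L-1 was 30.7 and 23.1 in fruit, 223 and 3.7 in flower, 17.8 and 46.7 in leaf, and 21.3 and 577 in root (F test adjusted p = 0.812, limma). The range within flower alone spanned the fruit and leaf libraries. rgl-miR5139_L-1_1ss16AG was 32.1 and 34.6 in fruit, 23.6 and 0 in flower, 0 and 0 in leaf, and 12.8 and 127 in root (F test adjusted p = 0.205, limma). It was listed at 0 in both leaf libraries, whose floors were 3.15 and 2.23.

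For these 5 CCA-ending sequences with a mean of at least 10, the log2 difference, leaf minus root, was -2.08 ± 1.03 for ppt-miR894_L-3R+1, -2.34 ± 0.98 for ath-miR8175_L-2, -2.37 ± 1.04 for osa-miR5072_L-4_1ss13GA, -1.92 ± 2.21 for cpa-miR8155_L-1 and -5.39 ± 1.82 for rgl-miR5139_L-1_1ss16AG (SE). All 5 were negative and none was called, with adjusted p between 0.128 and 0.665 in limma. Without root 2 they were -0.60, -1.75, -1.59, 0.42 and -3.79 in the same order, so cpa-miR8155_L-1 turned positive. Without root 1 they were -3.56, -2.92, -3.15, -4.27 and -7.00. With 1 root library left, that library is assumed to vary like the other tissues, so no calls are given from these fits. Of the 11 CCA-ending members, 7 had their highest value in root 2, beside 25 of all 53 members.

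**Figure D2:**
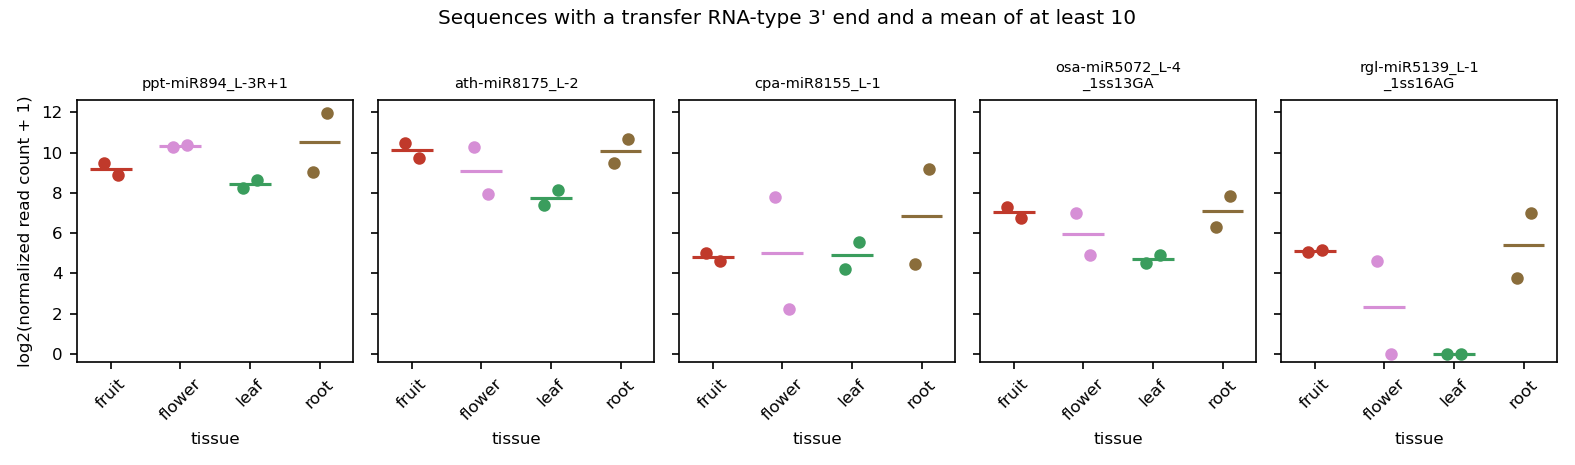
Points give log2(normalized read count + 1) of each library and lines the mean of the 2 libraries, by tissue, for the 5 CCA-ending sequences with a mean of at least 10. The leaf points are low and close together in most panels, and the root points lie far apart, with root 2 at 4063 for ppt-miR894_L-3R+1 against 522 in root 1.

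Limma called 4 of the 53 sequences between at least 1 pair of tissues, and none of them ended in CCA. Only sequences that reached a value of 1 in 2 or more libraries entered the fit, and 37 of the 53 did. At least 1 of the 6 pairs was called for 4 of these 37 members, where 12% of all 216 sequences tested were called. The F test for any tissue difference called 2 of the 37, against a background of 4.63%. An unadjusted p under 0.05 was found for 8 of the 37, beside 67 of all 216. The calls hang on single libraries. Fewer members were called when most of the fruit or flower libraries were left out. More were called without either root library, as over all sequences tested. Such fits leave 1 library in a tissue, so their counts are given only as a range, with the processing checks, and are not read as results. The 2 members that the F test called were above 0 in leaf alone. Without leaf 1 or leaf 2 they did not reach the filter and were not tested, so their loss there was fixed in advance. Without the filter limma called 0 members by either measure, and 4 of all sequences by either measure. In that fit, 7 members had an unadjusted p under 0.05 in the F test, and 10 in at least 1 pair.

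The called members are shown with the seed, bases 2 to 8, in capitals, to compare the 2 named after MIR5368, which do not share it.
gma-MIR5368-p3_1ss7TC: aCTGTTCCctgggattgg
gma-MIR5368-p3_2ss1AT18CA: tGAGATACcactctggaag
bol-MIR9410-p5_2ss4TG17TA: tTTGCAGAcgacttaaata
stu-MIR5303j-p3_2ss10GT17CT: aTTCAAATttctgcccta

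Only the MIR5368 pair was called by the F test, and among the 53 they were the only members above 0 in both leaf libraries and in no other library. Both sequences were listed at 0 in every fruit and flower library. The leaf libraries had 23.1 and 10.4 of gma-MIR5368-p3_1ss7TC, which was listed at 0 in both root libraries. They had 13.6 and 7.42 of gma-MIR5368-p3_2ss1AT18CA, likewise listed at 0 in root. Both entered the fit through the leaf libraries alone. Their F test adjusted p was 0.0305 and 0.0325 in limma. Against leaf, both were lower in fruit (adjusted p = 0.0304 for each, limma) and in flower (adjusted p = 0.0389 for each, limma), and higher in leaf than in root (adjusted p = 0.0243 for each, limma). Without the filter neither was called: the adjusted p in limma was 0.0966 for each in the F test, 0.0753 and 0.078 for fruit against leaf, 0.108 for each for flower against leaf and 0.0568 for each for leaf against root. The leaf values lay above the floors of fruit, flower and root 1, but 7.42 was under the floor of 7.62 in root 2, so root 2 was too shallow to show that this sequence is missing there.

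Against root, bol-MIR9410-p5_2ss4TG17TA was lower in leaf, at 133 and 57.2 in fruit, 33.7 and 89.6 in flower, 11.5 and 6.68 in leaf, and 1106 and 267 in root. Each root library was above every other library, and both leaf libraries were below all others. The log2 difference, leaf minus root, was -5.79 ± 1.07 (SE, adjusted p = 0.0346, limma), and the root mean was 75.4 times the leaf mean. Without the filter the adjusted p was 0.0568 in limma. It was higher in root 1 than in root 2. A shifted form, bol-MIR9410-p5_2ss5TG18TA, and bol-MIR9410-p3_2ss5TG18TA, both named after their values were seen, overlap it by 18 and 17 bases, so the 3 share most of their letters, and the means of these 2 were 2.61 and 0.521.

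Also between leaf and root, stu-MIR5303j-p3_2ss10GT17CT was listed at 0 in both leaf libraries and was 8.54 and 15.2 in root (adjusted p = 0.0411, limma, and 0.0771 without the filter). It was 0 and 0 in fruit and 9.07 and 5.92 in flower. Flower and root overlapped and both lay above the floors of fruit and leaf, which were at most 4.19.

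**Figure D3:**
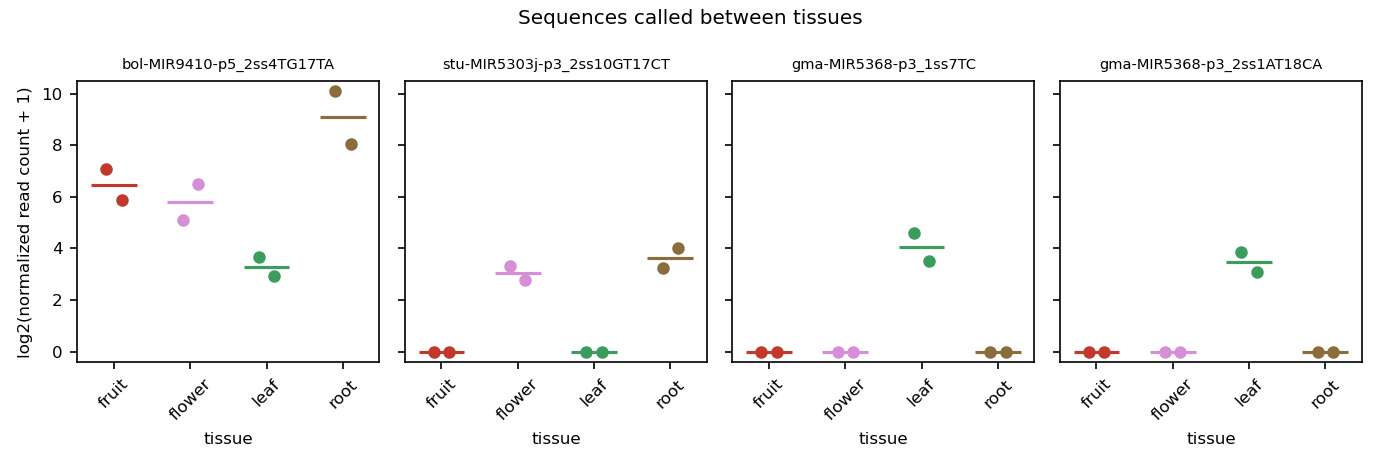
Points give log2(normalized read count + 1) of each library and lines the mean of the 2 libraries, by tissue, for the 4 members called in limma. The MIR5368 pair stands above 0 in leaf alone, stu-MIR5303j-p3_2ss10GT17CT in flower and root, and bol-MIR9410-p5_2ss4TG17TA is highest in root, at 1106 and 267.

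By pair, the members called were 0 for fruit against flower, 2 for fruit against leaf, 0 for fruit against root, 2 for flower against leaf, 0 for flower against root and 4 for leaf against root. Of all sequences tested, 2.31%, 3.7%, 2.78%, 2.31%, 2.78% and 8.33% were called in those pairs. Where limma called 0 members, an unadjusted p under 0.05 was found for 4 of the 37 between fruit and flower, 4 between fruit and root and 5 between flower and root. Over all 216 it was found for 35, 34 and 35 in the same order. The median log2 difference of the 37 members, leaf minus root, was -1.02, beside 0 over all 216. Without root 2 it was -0.78 over 33 members, beside 0 over all 208 tested, and without root 1 it was -2.53 over 34 members, beside 0.70 over all 208. The pairs share their libraries.

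Of the remaining abundant members, hbr-MIR6173-p5 resembled the MIR5368 pair in leaf. It was 0 and 0 in fruit, 0 and 0 in flower, 55.6 and 41.2 in leaf, and 2.85 and 59.7 in root (F test adjusted p = 0.0877, limma). It was not called. Leaving out either root library raised the number of calls over all sequences tested, so those fits are not read for this sequence. Of its 19 bases, 17 fit the binding site of a universal reverse primer for 16S ribosomal RNA, which plastids and bacteria carry. Whether ribosomal RNA of either gave the reads was not tested, and the other sequences of the series held no such stretch of 14 bases or more.

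Other members high in the mean were driven by 1 library. gma-MIR4388-p3_2ss17AG18TC was 109 in root 2 and between 1.48 and 20.9 in the other 7 libraries (F test adjusted p = 0.591, limma). mtr-MIR2592ay-p5_2ss6AG17CG_2 was 54.6 in root 2, 0 in root 1 and between 1.84 and 17.1 in the other 6 libraries (F test adjusted p = 0.866, limma). Its partner mtr-MIR2592ay-p5_2ss6AG17CG_1 is the same sequence less 1 base and had identical values in all 8 libraries, so the 2 are not separate measurements. By contrast, mtr-MIR2592bj-p3_2ss12TC19AT was 0 and 18.4 in fruit, 27.2 and 65.2 in flower, 14.7 and 6.68 in leaf, and 105 and 22.9 in root (F test adjusted p = 0.407, limma). The A and T rich gra-MIR7493b-p5_1ss18AC was 41.9 and 3.69 in fruit, 5.62 and 13.7 in flower, 32 and 0 in leaf, and 32.7 and 0 in root (F test adjusted p = 0.95, limma).

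Most of the 53 were rare and seen in few libraries. A mean of at least 10 was reached by 15 of them, and 182 of their 424 values were above 0, with 14 of the 182 at or under 3 reads. Sequences above 0 in only 1 library numbered 16 of 53 (30.2%), against 37 of the 217 others (17.1%), and those above 0 in all 8 libraries were 7 (13.2%), against 67 (30.9%). Less conserved sequences of 20 nt or longer were above 0 in 1 library in 12 of 38 (31.6%) and in all 8 in 8 (21.1%), and sequences of 18 or 19 nt from other families in 7 of 39 (17.9%) and in 6 (15.4%). These shares were not tested. Seen in root 2 alone were 5 of the 39 sequences of 18 or 19 nt from other families, 0 of the 38 less conserved longer ones and 6 of all 217 others. Of the 16 members above 0 in 1 library, 8 were seen in root 2 alone, although it is the shallowest library. They were gma-MIR9728-p3_1ss7CG, at 45.7, aly-MIR833-p5_2ss14CT17CA, bdi-MIR5167a-p5_2ss4CA18AT, ath-MIR5645a-p3_2ss11CA18CG, ghr-MIR7487-p5_2ss6AC18AC, stu-miR7988_L-2R-4_1ss10GT, gma-MIR1511-p3_2ss3CG18TC and ath-miR8174_R-2_1ss5GT, at 10.2, all named after their values were seen. Each was above the floor of 7.62 in root 2.

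Agreement between the libraries of a tissue was weakest in root. Members above 0 in both libraries numbered 12 in fruit, 20 in flower, 14 in leaf and 13 in root, and those above 0 in only 1 of the 2 numbered 9 in fruit, 15 in flower, 13 in leaf and 27 in root. Among members above 0 in both, the median absolute log2 difference between replicates was 0.9 in fruit, 1.12 in flower, 0.77 in leaf and 2.2 in root. Root 2 held the highest value of 25 of the 53 members and root 1 that of 8.

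**Figure D4:**
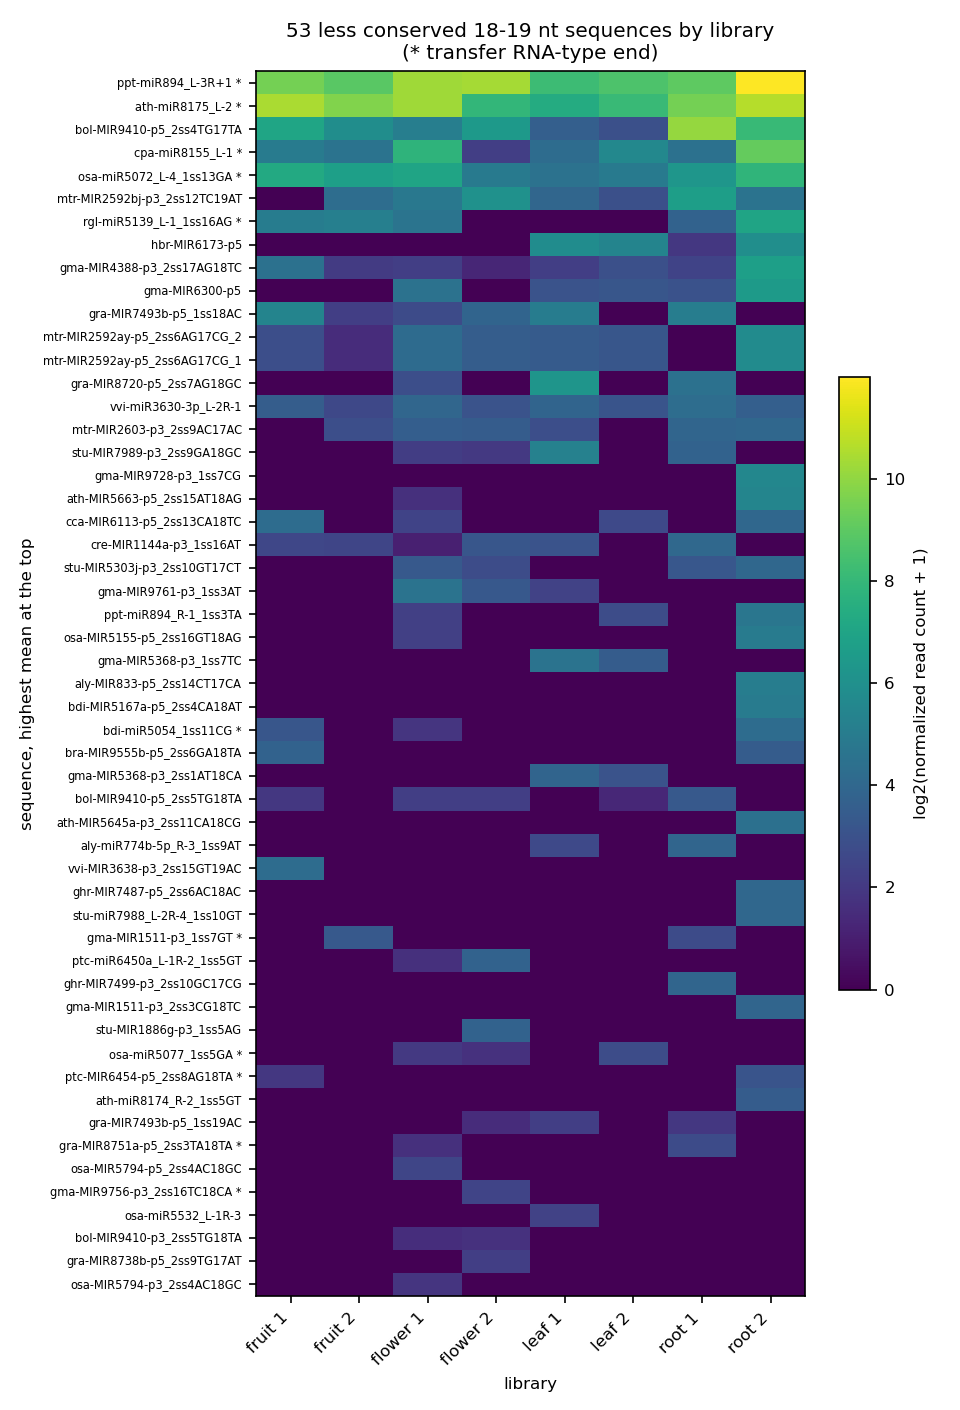
Each row is 1 of the 53 sequences, ordered by mean, each column 1 library, and colour gives log2(normalized read count + 1); asterisks mark the 11 that end in CCA. The upper rows are present in most libraries, while the lower rows are mostly 0, with 8 sequences coloured in root 2 alone.

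Beyond the CCA ends of 11 of the 53, the members shared little. They carried 44 different family numbers and names from 19 species prefixes. By name, 39 carry the p3 or p5 tag that the deposited legend gives to newly discovered 5p or 3p sequences. The tags do not separate arms in every case: bol-MIR9410 and osa-MIR5794, the second named after its values were seen, each carry both tags on sequences that overlap. Of the 53, 29 differ from the named sequence by 2 substitutions, 17 by 1 and 7 by 0. Only hbr-MIR6173-p5 and gma-MIR6300-p5 carried neither a substitution nor a changed end. The CCA-ending members had a median G and C content of 55.6%, ranging from 22.2% to 77.8%, and the other 42 members had a median of 38.9%, ranging from 0% to 66.7%. T was the first base of 24 of the 53 and A of 16. In all, 12 members overlapped another member by at least 14 bases and 4 overlapped a longer sequence of the series. Of these 4, vvi-miR3630-3p_L-2R-1 lies inside vvi-miR3630-3p_L-1 and was named after its values were seen; it was between 5.07 and 18.5 in all 8 libraries, where the longer form was between 106 and 1689.

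**Figure D5:**
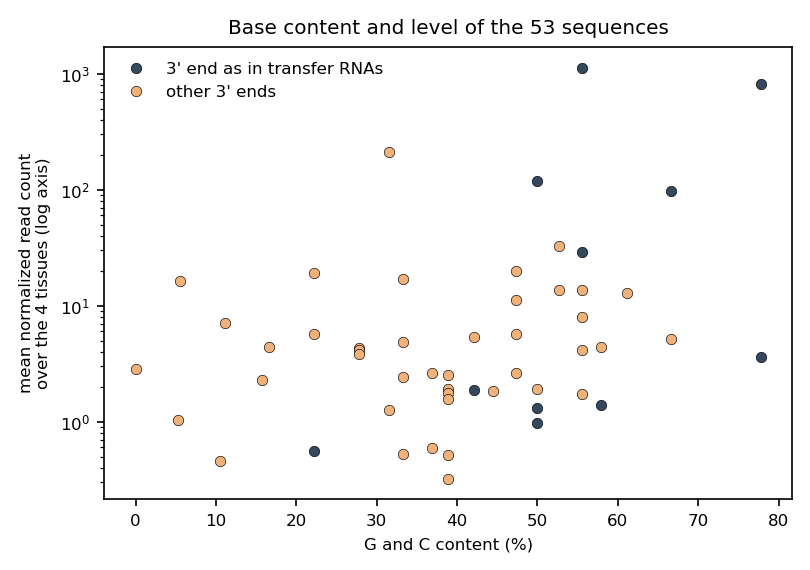
Each point is 1 of the 53 sequences, with its G and C content in percent on the x axis and its mean normalized read count over the 4 tissues on a log y axis. Of the sequences with a mean of at least 100, 3 of 4 end in CCA, and the fourth is bol-MIR9410-p5_2ss4TG17TA, at 31.6% G and C.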

How the data were processed

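Small RNA libraries of fruit, flower, leaf and root, 2 per tissue, were made with a TruSeq kit, and reads of adapter dimers, low complexity, repeats, ribosomal RNA and transfer RNA were filtered out with ACGT101-miR, per the labels' protocols. The authors deposited a normalized signal, headed as norm and read here as normalized read counts, by a formula not given in the sources used here. Program versions and a genome build are likewise not given. With a tolerance of 0.01 of a library's step, 75.7% to 83.2% of the values above 0 came out whole, and 94.2% to 98.6% did when shares of 1 in 2 were accepted. The reads were therefore not recovered as whole numbers and no count test was run. Floors of 3 reads cover counting error only.

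The 304 entries were reduced to 270 different sequences, and entries with the same sequence had identical values. The 216 sequences that reached a value of 1 in 2 or more libraries were fitted as log2(value + 1) with limma 3.58.1 in R 4.3.3, with tissue as the only term, 4 residual and 2.43 prior degrees of freedom, and a mean-variance trend. The fitting code was tested on simulated data. A call is a Benjamini-Hochberg adjusted p under 0.05 over all 216. The log2 scale understates changes of low values. Named members were all called ones, the 12 with the highest mean, and CCA-ending ones with a mean of at least 10. The members and lists were chosen with earlier results of these data known, and the base 16 and 17 check, the acceptor pairing and the primer site search were added after the sequences were seen. No transfer RNA or genome sequence of peony was used here, so likeness rests on letters within the table. Other scalings, filters, pseudocounts, a replicate block and leaving out each library were tried.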

Additional observations from a re-analysis of the deposited data

How the results depend on the processing

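No called difference between tissues changed direction under any alternative run. For the MIR5368 pair and stu-MIR5303j-p3_2ss10GT17CT this says little, because their lower tissue was at 0 in both libraries and the direction could hardly reverse. The calls themselves were fragile. The number of members called by the F test, 2, was 4 with a pseudocount of 0.5 and 0 with a pseudocount of 10, without a filter, with a minimum value of 10, with quantile normalization and with the same library total. Over all sequences the F test called 10 in the main fit, 27 with a pseudocount of 0.5 and at most 4 in those fits that called 0 members. The number called in at least 1 pair, 4, was 0 without a filter, 1 with a minimum value of 10 and 8 with only the 2 tissues of a pair in the fit. Over all sequences it was 26 in the main fit, and 4, 24 and 56 in those fits. With the replicate block, limma called 0 members in both, and 0 and 2 of all sequences. The correlation of same-numbered libraries across tissues ran from -0.2 to 0.24. The labels do not say whether a number marks a shared plant or batch, and pairing was not tested. Leaving out each library in turn gave between 0 and 7 in the F test and between 0 and 9 in at least 1 pair. In the fits that called 0, between 4 and 8 members had an unadjusted p under 0.05 in the F test, and between 7 and 10 in at least 1 pair. The upper ends of the leave-out ranges both came from the fit without root 1. In that fit the calls over all sequences tested rose as well, so the rise was not particular to the members. Each leave-out fit leaves 1 library in a tissue, so these ranges show only how unsteady the counts are. The cause of these changes was not tested. The members' mean share of the leaf total, 0.336%, was 0.200% without ppt-miR894_L-3R+1 and 0.294% with 18-nt members alone, and the share of CCA-ending members, 0.248%, was 0.111% without it; the other tissues moved by less than their SD, 2.11% in root, although without it the members held 1.40% in root, in place of 2.58%, and 0.461% in flower, in place of 0.86%, and CCA-ending members 0.856% in root, in place of 2.04%, and 0.385% in flower, in place of 0.785%. Another scaling moved the median difference of all sequences by up to 0.48 on the log2 scale, for fruit minus flower under quantile normalization. Depth limits the rare members most: in root 2 a value under 7.62 is less than 3 reads.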
